A study of Mus musculus with 12 samples.

Results

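The core pluripotency factors of mouse embryonic stem cells, Nanog with its partners Pou5f1 (the protein Oct4), Sox2, Sall4, Utf1 and Lin28a, were followed in 12 RNA-seq libraries of embryoid bodies, the floating aggregates that stem cells form when they start to differentiate. These 6 genes are 6 of the 24015 gene rows counted, and all 6 passed the filter on low counts that left 14356 genes to test. They were chosen by name, as the core of the pluripotency network, and by a result of these same libraries, the lower Nanog level in Trim33-deficient bodies beside higher levels of most naive-state genes. For these 6 genes the comparisons of Trim33-deficient with control bodies are therefore a description and support nothing, while the comparisons of day 2.5 with day 2 were tested. The day comparisons use the libraries on which Nanog was selected, and are not independent of that choice.

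The stem cell lines were of an outbred strain and came from embryos homozygous for the Trim33-flox allele that carried the UbcCreERT2 transgene, which makes a tamoxifen-dependent Cre recombinase from a ubiquitin promoter. Feeder-free culture with LIF and 2i came before differentiation; these additions hold cells in the naive state. 4OH-Tamoxifen was added on day 1 to induce Trim33-deficiency, and control and Trim33-deficient bodies were collected on day 2 and on day 2.5, with 3 libraries in each of the 4 groups. The labels give the genotype of the control libraries as wildtype, and the sources used here do not say whether control bodies received 4OH-Tamoxifen, how many lines were used, or what share of cells recombined. The labels speak of independent pairs, without saying what made a pair.

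Trim33 encodes a chromatin-binding ubiquitin ligase that works with the Smad proteins downstream of Nodal and other TGF-beta ligands. Nanog, Oct4 and Sox2 are transcription factors that bind many of the same enhancers in stem cells, their own genes among them, and Oct4 and Sox2 often bind side by side on a composite Sox-Oct site. The level of Nanog is not constant: in the mouse it drops when cells leave the naive state and returns in the posterior epiblast around the start of gastrulation, where Nodal signalling is active. Sall4 is a zinc-finger factor of the same network, Utf1 a chromatin-bound protein of undifferentiated cells, and Lin28a an RNA-binding protein that blocks the maturation of let-7 microRNAs.

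The stretches just upstream of Nanog and Sox2 are shown first because these are the members that differed most between control and Trim33-deficient bodies, in opposite directions, and because both stretches hold an Oct motif. Each sequence is the 250 bases before the first transcription start of the gene, 5′ to 3′ on the strand of the gene, from RefSeq for the mouse build GRCm38.p6, and lies on the plus strand. The capitals mark the Oct core ATGCAAA and, in Nanog, the Sox core ATTGT beside it. In Nanog both motifs read on the opposite strand, so the capitals show their reverse complement, from -75 to -63 relative to the start. In Sox2 the Oct core reads on the strand of the gene, from -99 to -93.
Nanog, chr6:122707239-122707488: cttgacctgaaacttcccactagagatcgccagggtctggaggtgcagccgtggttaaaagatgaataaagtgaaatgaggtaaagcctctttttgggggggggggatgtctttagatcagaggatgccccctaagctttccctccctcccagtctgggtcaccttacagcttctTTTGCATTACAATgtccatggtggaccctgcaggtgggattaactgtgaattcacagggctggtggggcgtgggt
Sox2, chr3:34649745-34649994: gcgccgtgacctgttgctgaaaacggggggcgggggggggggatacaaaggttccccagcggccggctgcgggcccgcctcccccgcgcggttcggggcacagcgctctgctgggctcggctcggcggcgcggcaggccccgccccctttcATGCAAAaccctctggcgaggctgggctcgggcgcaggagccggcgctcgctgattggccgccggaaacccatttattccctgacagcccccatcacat

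RefSeq promoter windows were found for 5 of the 6 members; Sall4 was not among them. Motifs were searched on both strands of the 250 bases before each start: the Oct octamer ATGCAAAT and the Oct core ATGCAAA it contains, the Sox core ATTGT, the Sox-Oct composite (the Sox core, then at most 1 base, then the start of the Oct core), the TATA box TATAAA, the GC box GGGCGG, the Tcf motif CTTTGA, the Esrrb motif TCAAGGTCA, the Smad palindrome GTCTAGAC, the Klf motif CCACACCC and the Stat motif TTCCNGGAA. The composite with the full Oct core was found in 12 of 32851 windows of all genes (0.0365%), the windows of both Nanog starts among them. The windows of the Nanog starts overlap, and both hold the same composite site. The Oct core alone was found in 4.12% of windows, the Sox core in 27.7% and the GC box in 32.7%. Sox2 held a GC box on either strand beside its Oct core, Utf1 held 4 GC boxes, and Pou5f1 held 1 GC box before its first start and 1 Sox core before its second. Lin28a held 2 Sox cores and 1 Tcf motif, which 13.8% of windows hold. No match to the remaining motifs was found in these windows, which says only that these letters are not there: the shares of all windows were 1.6% for the octamer, 12.4% for the TATA box, 0.387% for the Esrrb motif, 0.167% for the Smad palindrome, 3.2% for the Klf motif and 0.913% for the Stat motif.

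The libraries held between 10066338 and 16529627 reads counted in genes. Values are given as CPM (a gene's reads scaled to a common library total) after TMM scaling, and fold changes as log2 ± standard error (SE) from edgeR's quasi-likelihood fit over the 12 libraries. No member was at 0 in any library, and a count of 3 corresponded to between 0.179 and 0.318 CPM. Trim33 itself stood at 271 ± 8.55 CPM (SD, n = 3) in day 2 control and 66 ± 4.88 in day 2 Trim33-deficient bodies, and at 250 ± 12.8 and 58.3 ± 4.23 on day 2.5, so its groups did not overlap on either day. The sources used here do not say which exons are removed. The 45S ribosomal RNA gene Rn45s made up 11.9% of the reads of day 2.5 control replicate 2 and 7.87% of those of replicate 1 of day 2 Trim33-deficient bodies, where the other libraries held between 0.609% and 1.67%. With day 2 control replicate 2 these libraries stood furthest from the others of their group, and values without the 3 of them are given below where they matter. Markers of embryonic stem cells and epiblast were abundant everywhere: the 9 listed, which include members, summed to between 4330 and 4850 CPM in all 12 libraries.

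Nanog was the member that differed most between control and Trim33-deficient bodies. On day 2 it stood at 96.7, 140 and 105 CPM in control replicates 1 to 3 and at 65.2, 84.8 and 77.5 CPM in Trim33-deficient replicates 1 to 3. The groups did not overlap, and replicate 2 was the highest library of both. On day 2.5 the control values were 163, 209 and 175 CPM and the Trim33-deficient values 68.7, 77.1 and 81.5 CPM. Here the groups lay far apart, with each control library above each Trim33-deficient one. The fitted difference was -0.58 ± 0.15 on the log2 scale on day 2 (1.5-fold lower) and -1.26 ± 0.15 on day 2.5 (2.4-fold lower). Without the 3 libraries that stood apart it was -0.31 ± 0.075 on day 2 and -1.15 ± 0.065 on day 2.5, so the day 2 difference was smaller by more than 1.5 times without them.

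**Figure D1:**
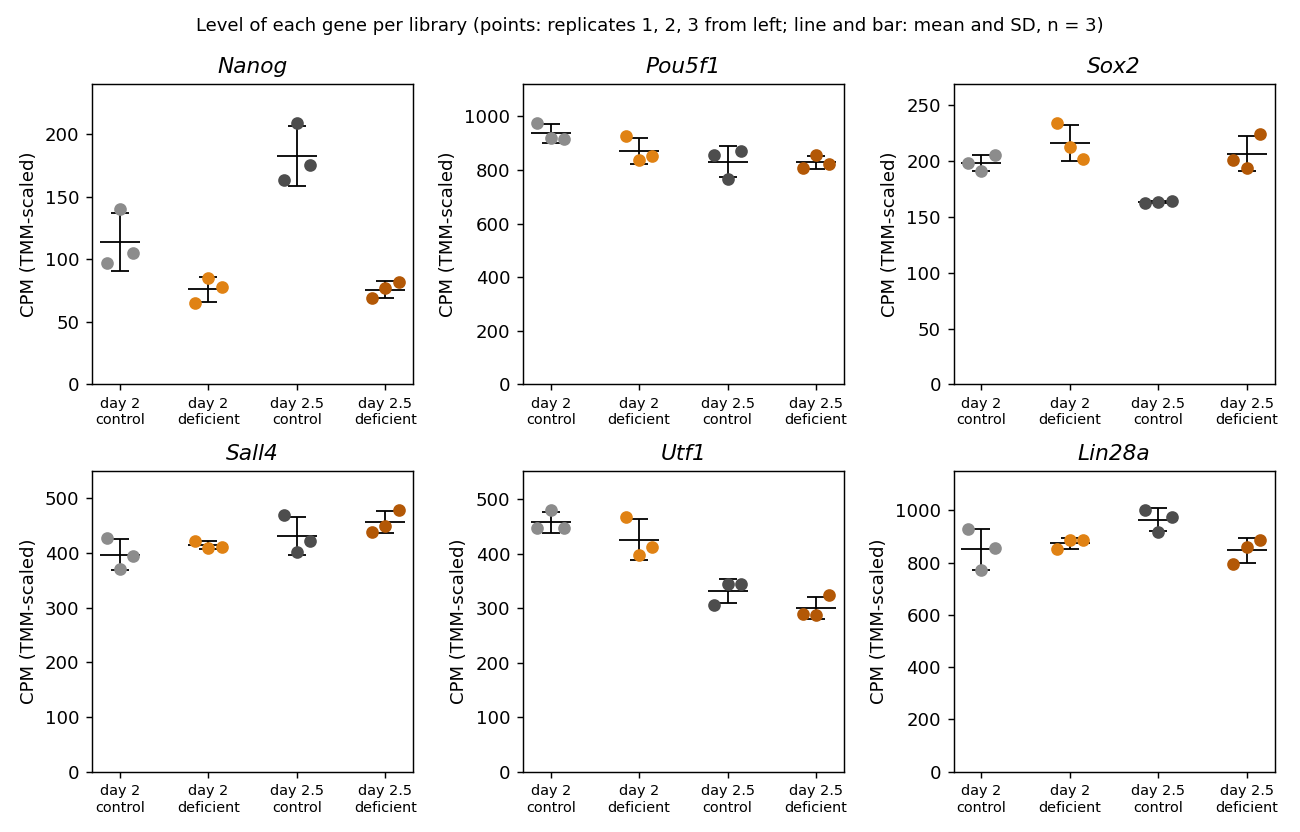
CPM (TMM-scaled) of the 6 core genes in each of the 12 libraries, by group (x axis; deficient means Trim33-deficient). Points are replicates 1, 2 and 3 from left to right, and the line and bar are the mean and SD of 3 libraries; Nanog stands highest in day 2.5 control (between 163 and 209), and Sox2 lowest there (between 162 and 164).

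In control bodies Nanog rose from a mean of 114 ± 23 on day 2 to 182 ± 23.5 CPM on day 2.5 (SD, n = 3), a log2 change of 0.68 ± 0.15 (edgeR quasi-likelihood test, Benjamini-Hochberg adjusted p = 0.0109). All 3 day 2.5 control libraries were above all 3 of day 2. In Trim33-deficient bodies its mean was 75.8 CPM on both days (SD 9.87 and 6.54), and the change of -0.01 ± 0.15 did not pass the test (edgeR adjusted p = 0.982; 95% interval from -0.34 to 0.33). The change in Trim33-deficient bodies minus that in control was -0.68 ± 0.21 on the log2 scale. It equals the genotype difference on day 2.5 minus that on day 2, and the choice of Nanog used these differences. It is therefore a description, and was not past the threshold over all genes (edgeR adjusted p = 0.0972). The changes of the genotypes are given side by side and were not shown to differ. The rise in control was 0.75 ± 0.072 without the 3 libraries that stood apart.

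Nanog was also the only one of the 6 to pass the test as higher on day 2.5 in control bodies. Of the 6 members, 1 rose and 2 fell there, against 8.2% and 7.91% of the 14356 genes tested. In Trim33-deficient bodies none rose and 1 fell, against 9.09% and 6.93% of genes. Between genotypes the counts stand only as a description of values that the selection used. On day 2, none was past the threshold as higher and 1, Nanog, as lower, where 5.94% and 3.9% of all genes were. Nanog was no longer past it on day 2 when any 1 of 5 libraries was left out, which were replicates 2 and 3 of day 2 control, 1 and 3 of day 2 Trim33-deficient and 2 of day 2.5 Trim33-deficient bodies (edgeR adjusted p up to 0.123). On day 2.5, 1 member (Sox2) was past it as higher and 2 (Nanog and Lin28a) as lower, where 22% and 20.7% of all genes were; Lin28a was not when replicate 1 or 3 of day 2.5 control, or 1 or 2 of day 2.5 Trim33-deficient bodies, was left out (edgeR adjusted p up to 0.121).

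Pou5f1, which encodes Oct4, held nearly level. It stood at 976, 919 and 915 CPM in day 2 control replicates 1 to 3, at 928, 838 and 851 in day 2 Trim33-deficient, at 856, 766 and 872 in day 2.5 control and at 809, 857 and 822 in day 2.5 Trim33-deficient bodies. The libraries of the day 2.5 groups overlapped throughout, and the genotype difference there was -0.004 ± 0.057 (95% interval from -0.12 to 0.12), against -0.10 ± 0.057 on day 2. From day 2 to day 2.5 its change in control was -0.17 ± 0.057, whose edgeR adjusted p rounded to the threshold of 0.05 and lay just above it, and in Trim33-deficient bodies -0.07 ± 0.057 (edgeR adjusted p = 0.413). With DESeq2 in place of edgeR the control change passed (adjusted p = 0.0339).

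Sox2, the partner of Oct4 at composite sites, went the other way from Nanog. Its values were 198, 191 and 205 CPM in day 2 control replicates 1 to 3 and 234, 212 and 202 in day 2 Trim33-deficient bodies, which overlapped. On day 2.5 control stood at 162, 163 and 164 CPM and Trim33-deficient at 201, 194 and 224 CPM. The day 2.5 control libraries were thus below all 9 others. The fall in control between the days was -0.28 ± 0.060 (edgeR adjusted p = 0.00498), whereas the change in Trim33-deficient bodies was -0.06 ± 0.060 (edgeR adjusted p = 0.522). The genotype difference was 0.12 ± 0.060 on day 2 and 0.34 ± 0.060 on day 2.5 (1.27-fold higher). The change in Trim33-deficient minus control bodies was 0.22 ± 0.085 and was not past the threshold (edgeR adjusted p = 0.147). Without the 3 libraries that stood apart it was 0.306 ± 0.0803 and past it (edgeR adjusted p = 0.0142). Being built from the genotype differences, it is a description.

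Utf1 was the member that fell with time in both genotypes. It stood at 447, 480 and 447 CPM in day 2 control replicates 1 to 3 and at 306, 344 and 344 in day 2.5 control, a change of -0.47 ± 0.068 (edgeR adjusted p = 0.000395). In Trim33-deficient bodies it went from 468, 397 and 412 to 290, 287 and 324 CPM, a change of -0.50 ± 0.068 (edgeR adjusted p = 0.000155). Neither genotype's days overlapped. The change in Trim33-deficient minus control bodies was -0.03 ± 0.096, and the genotype differences were -0.11 ± 0.068 on day 2 and -0.14 ± 0.068 on day 2.5.

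Sall4 did not pass the test with time in either genotype. Its control values were 427, 370 and 394 CPM on day 2 and 469, 402 and 422 on day 2.5, a change of 0.12 ± 0.061 (edgeR adjusted p = 0.202). The Trim33-deficient values were 422, 409 and 411 CPM on day 2 and 439, 450 and 478 on day 2.5, a change of 0.14 ± 0.061 (edgeR adjusted p = 0.135). The genotypes overlapped on both days, with differences of 0.06 ± 0.061 and 0.08 ± 0.061.

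Lin28a values were 927, 771 and 856 CPM in day 2 control replicates 1 to 3 and 850, 886 and 887 in day 2 Trim33-deficient bodies. On day 2.5 they were 1000, 915 and 976 CPM in control and 794, 860 and 885 in Trim33-deficient bodies. The genotypes overlapped on day 2 (difference 0.04 ± 0.063) and stood apart on day 2.5 (difference -0.19 ± 0.063, 1.14-fold lower). With time its change was 0.18 ± 0.063 in control (edgeR adjusted p = 0.0632) and -0.05 ± 0.063 in Trim33-deficient bodies (edgeR adjusted p = 0.658).

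**Figure D2:**
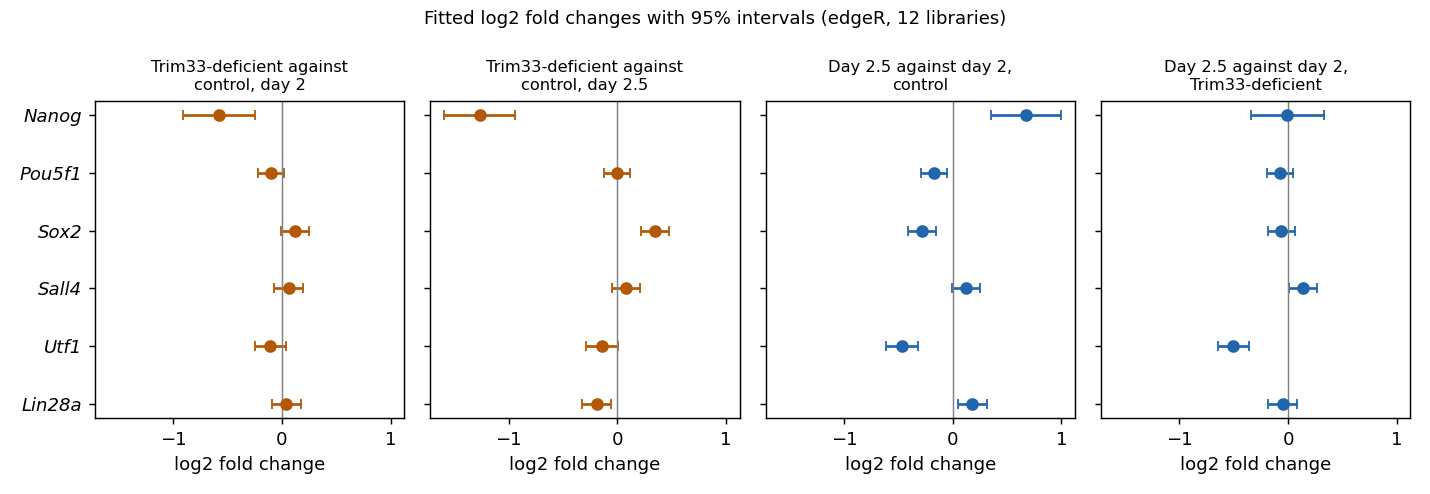
Fitted log2 fold changes of the 6 core genes in the 4 comparisons, each with its 95% interval from edgeR over 12 libraries. The Trim33-deficient against control panels are descriptive, since Nanog was chosen on them; in the day panels Nanog lies at 0.68 in control and at -0.01 in Trim33-deficient bodies, while Utf1 lies near -0.5 in both.

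Because all 6 genes are counted in the same library, the ratio of Nanog to a partner does not depend on how libraries are scaled. The log2 ratio of Nanog to Sox2 counts was -0.82 ± 0.32 (SD, n = 3) in day 2 control, -1.51 ± 0.28 in day 2 Trim33-deficient, 0.16 ± 0.18 in day 2.5 control and -1.45 ± 0.11 in day 2.5 Trim33-deficient bodies. Day 2.5 control was thus the group in which Nanog reads outnumbered Sox2 reads on average. The ratio to Pou5f1 was -3.06, -3.53, -2.19 and -3.45 in the same order of groups. On day 2.5 the Trim33-deficient mean ratio was below the control mean for each of the 5 partners, by -1.08 with Lin28a, -1.12 with Utf1, -1.26 with Pou5f1, -1.35 with Sall4 and -1.6 with Sox2. Between days in Trim33-deficient bodies, the ratio to Utf1 moved by 0.51 while Utf1 fell, and those to the other partners moved by between -0.13 and 0.08.

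**Figure D3:**
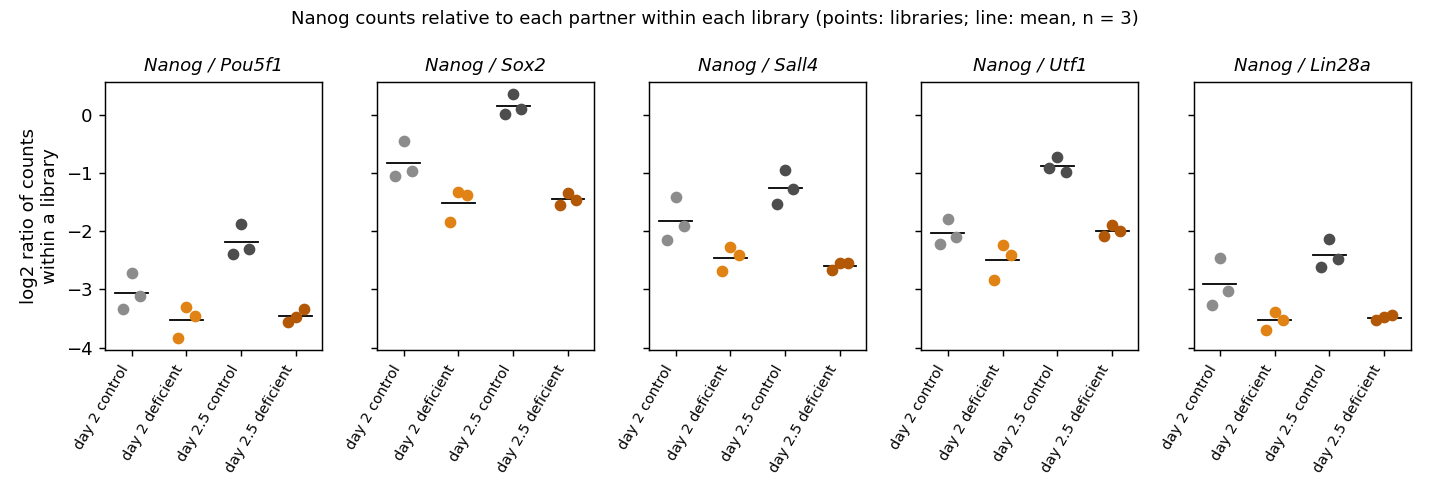
Log2 ratio of Nanog counts to the counts of each of the 5 partners within the same library (y axis), by group (x axis). Points are libraries and lines are means of 3; in each panel the day 2.5 control mean stands highest, and the ratio to Sox2 has a mean of 0.16 there and -1.45 in day 2.5 Trim33-deficient bodies.

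Per kilobase of exon (GENCODE M21 exon unions), Pou5f1 was the most abundant of the 6 in each group, followed by Utf1 and Lin28a. In day 2 control the CPM per kilobase were 417 ± 15.2 for Pou5f1, 373 ± 15.5 for Utf1, 213 ± 19.5 for Lin28a, 96.3 ± 3.4 for Sox2, 71.7 ± 5.17 for Sall4 and 50.8 ± 10.3 for Nanog (SD, n = 3). Nanog was the lowest in that group and in both Trim33-deficient groups, at 33.8 CPM per kilobase in each of the latter. In day 2.5 control Nanog reached 81.3 ± 10.6, beside 79.2 ± 0.486 for Sox2 and 77.9 ± 6.21 for Sall4, and these 3 do not differ beyond their spread. Across the 12 libraries the level of Nanog ran against that of Sox2 (Pearson r = -0.878 of log2 CPM) and loosely with that of Lin28a (r = 0.478). Its r with Pou5f1, Sall4 and Utf1 lay between -0.245 and -0.0648. These are descriptions over libraries that share 4 groups.

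Genes known to drive Nanog fell into naive-state genes and others. Of 16 listed activators tested, 9 are on the list of naive genes, whose higher level the choice of members refers to, so their genotype values are a description. Over the 16, 10 were higher and 1 lower in day 2.5 Trim33-deficient bodies (2 lower without replicate 1 or 2 of day 2 control or 1 of day 2.5 control), beside 22% and 20.7% of all genes; the median log2 difference was 1.44 against -0.01 over all genes tested. Of the 7 that are not naive genes, 1 was higher and 1 lower, with a median of 0.01. Esrrb, an orphan nuclear receptor that binds the Nanog promoter, went from between 26.8 and 30.5 CPM in day 2.5 control to between 110 and 152 in Trim33-deficient bodies (2.23 ± 0.15). Tfcp2l1, a naive-state transcription factor, stood higher by 2.05 ± 0.16, Klf2, a zinc-finger factor held up by 2i, by 1.92 ± 0.17, and Stat3, which carries the LIF signal, by 1.36 ± 0.10.

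In control bodies between the days, when Nanog rose, none of the 16 activators rose by edgeR (0 also at an unadjusted p under 0.05, and 0 by DESeq2) and 4 fell, beside 8.2% and 7.91% of all genes. Esrrb fell by 0.83 ± 0.15 (edgeR adjusted p = 0.00445) and Klf2 by 0.74 ± 0.17 (edgeR adjusted p = 0.0144). The 0 became 1 without day 2 control replicate 2. The 4 became 1 without day 2 control replicate 3 or day 2.5 control replicate 2 and 2 without day 2.5 control replicate 3, and Klf2 did not pass without any 1 of these. In Trim33-deficient bodies 4 of the 16 rose and 2 fell with time, beside 9.09% and 6.93% of all genes. Of the 7 that are not naive genes, 0 rose and 2 fell. Within that genotype 0 of the 16 rose when replicate 2 of day 2 or 1 of day 2.5 was left out, 1 when replicate 3 of day 2 or 2 of day 2.5 was, and 7 when replicate 1 of day 2 was.

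Of 11 listed repressors of Nanog, 9 could be tested, and on day 2.5 there were 2 higher and 2 lower in Trim33-deficient bodies (median 0.07), a share like the 22% and 20.7% of all genes. On day 2 neither edgeR nor DESeq2 called any; at an unadjusted p under 0.05 edgeR had 0 higher and 3 lower, and without day 2 control replicate 2 it called 2 lower. Tcf7l1, the Wnt pathway repressor, was lower by -0.75 ± 0.10 on day 2.5 (edgeR adjusted p = 9.2e-05), and Nr6a1, an orphan receptor that silences Pou5f1 and Nanog as cells differentiate, by -0.55 ± 0.065 (edgeR adjusted p = 1.0e-05). Gata6 and Sox17, endoderm factors, were higher by 1.20 ± 0.39 (edgeR adjusted p = 0.0206) and 1.84 ± 0.44 (edgeR adjusted p = 0.00337), from low levels: Gata6 reached at most 1.32 CPM and Sox17 at most 1.25 CPM in any day 2.5 Trim33-deficient library, and Gata6 did not pass without day 2.5 control replicate 1 or, of the Trim33-deficient libraries of that day, replicate 2 (edgeR adjusted p up to 0.072). With time Nr6a1 rose in control (0.33 ± 0.064, edgeR adjusted p = 0.00298).

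Of 20 genes bound by Oct4 and Sox2, 7 are on the list of naive genes. Over the 20, 14 were higher and 2 lower in Trim33-deficient bodies on day 2.5 (median 0.53), beside 22% and 20.7% of all genes. Of the 13 that are not naive genes, 8 were higher and 2 lower (median 0.40). On day 2, 5 of the 20 were higher and none lower (median 0.18), beside 5.94% and 3.9%; edgeR had 3 lower at an unadjusted p under 0.05 and DESeq2 called 1 lower, and the 5 higher became 2 or 3 when replicate 1 or 2 of day 2 Trim33-deficient bodies or any 1 day 2 control library was left out. Spp1, which encodes osteopontin, was higher on day 2.5 by 1.26 ± 0.12 (edgeR adjusted p = 9.1e-06). Fbxo15, an F-box protein gene with a classic composite site and a naive gene, went from 34.3 ± 7.22 to 137 ± 12.2 CPM (SD, n = 3). With time Fbxo15 rose in Trim33-deficient bodies (1.13 ± 0.13, edgeR adjusted p = 0.000158) and did not pass in control (-0.18 ± 0.14, edgeR adjusted p = 0.44). In control 1 of the 20 rose and 5 fell, beside 8.2% and 7.91% of all genes. In Trim33-deficient bodies 6 rose and 2 fell, beside 9.09% and 6.93%, but 3 and 1 without replicate 2 or 3 of day 2 or replicate 1 or 2 of day 2.5.

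Co-factors that share complexes or enhancers with the core proteins were split. Of 25, 7 were higher and 10 lower on day 2.5 (median -0.07; 4 lower with total counts only), beside 22% and 20.7% of all genes. Mybl2, a cell-cycle transcription factor, was higher by 0.75 ± 0.072 (edgeR adjusted p = 1.9e-06), and Rif1, a chromatin and replication-timing factor, by 0.40 ± 0.065 (edgeR adjusted p = 0.000147). Nr0b1, which encodes the nuclear receptor Dax1 and is on the naive list, stood higher by 1.17 ± 0.18. Kdm1a, a histone demethylase, was lower by -0.35 ± 0.041 (edgeR adjusted p = 9.1e-06). On day 2, 3 were lower and none higher (1 by edgeR at an unadjusted p under 0.05, 0 by DESeq2), beside 3.9% and 5.94% of all genes. The 3 became 0 or 1 when any 1 day 2 library other than control replicate 2, or replicate 2 of day 2.5 Trim33-deficient bodies, was left out. With time 7 fell and none rose in control (2 by edgeR at an unadjusted p under 0.05, 0 by DESeq2), beside 7.91% and 8.2% of all genes. Single libraries moved the 7 to between 3 (day 2 control replicate 1 or 3, day 2.5 control replicate 2 or 3) and 12 (day 2 control replicate 2). Mybl2 was among those that fell (-0.50 ± 0.072, edgeR adjusted p = 0.00042). In Trim33-deficient bodies 5 fell and 1 rose, beside 6.93% and 9.09% of all genes. Between 0 and 3 fell when any 1 library of that genotype other than replicate 3 of day 2.5 was left out.

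**Figure D4:**
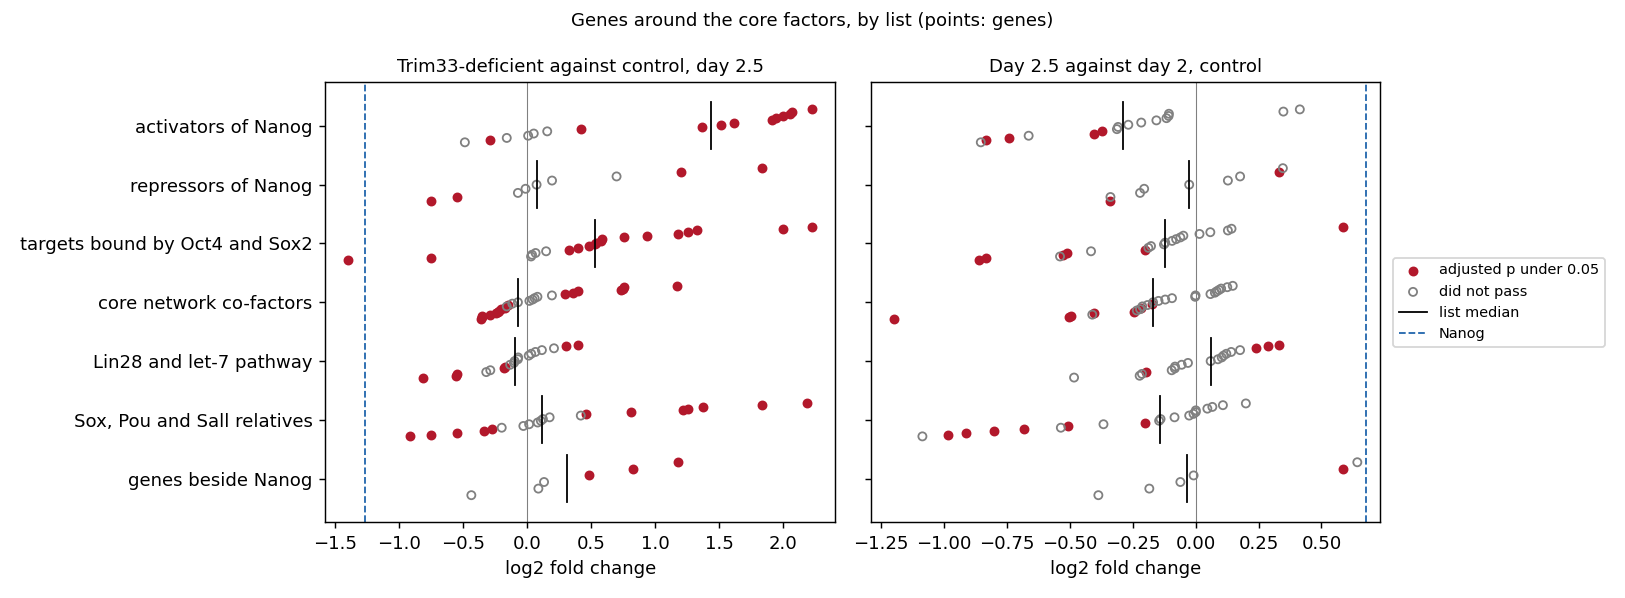
Log2 fold changes (x axis) of the tested genes of 7 lists around the core factors, for Trim33-deficient against control on day 2.5 (left) and day 2.5 against day 2 in control (right). Filled points passed an adjusted p of 0.05, open points did not, black lines are list medians and the dashed line is Nanog; on the left Nanog lies at -1.26 while the activators, 9 of 16 of them naive genes, have a median of 1.44.

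Beside Lin28a, the paralogue Lin28b differed between genotypes on both days. It stood at 118 ± 2.43 CPM in day 2 control, 91.5 ± 9.09 in day 2 Trim33-deficient, 139 ± 2.62 in day 2.5 control and 78.9 ± 3.71 in day 2.5 Trim33-deficient bodies (SD, n = 3). Lin28b was lower with deficiency by -0.36 ± 0.063 on day 2 (edgeR adjusted p = 0.003) and by -0.82 ± 0.063 on day 2.5 (edgeR adjusted p = 2.1e-07). It rose with time in control (0.24 ± 0.062, edgeR adjusted p = 0.0156) and fell in Trim33-deficient bodies (-0.22 ± 0.064, edgeR adjusted p = 0.0281), a fall that did not pass when replicate 2 or 3 of day 2, or 1 or 2 of day 2.5, in that genotype was left out (edgeR adjusted p up to 0.148). Lin28a differed between genotypes by 0.04 ± 0.063 on day 2 and by -0.19 ± 0.063 on day 2.5, the latter in the direction of Lin28b. Of the 22 genes listed for the Lin28 and let-7 pathway, 19 were tested, with 2 higher and 5 lower on day 2.5 (median -0.10), beside 22% and 20.7% of all genes, and 1 lower on day 2, beside 3.9%. The 5 lower became 3 with total counts only or without day 2.5 Trim33-deficient replicate 1 and 8 without replicate 3 of that group, the 2 higher became 1 without the latter or replicate 2 or 3 of day 2.5 control, and the 1 on day 2 became 3 without day 2 control replicate 2. The RNA-binding protein genes Igf2bp1 and Igf2bp2, both let-7 targets, went apart, with differences of 0.31 ± 0.086 (edgeR adjusted p = 0.0107) and -0.55 ± 0.14 (edgeR adjusted p = 0.00743). With time 3 of the 19 rose in control, beside 8.2% of all genes. The let-7 microRNAs themselves were not analysed here.

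Among relatives of Sox2, Pou5f1 and Sall4, 20 of 22 were tested, and on day 2.5 there were 7 higher and 5 lower in Trim33-deficient bodies (median 0.12), beside 22% and 20.7% of all genes. On day 2, Sox4 was lower by -0.47 ± 0.067 (edgeR adjusted p = 0.000793); Sox3 was at -0.30 ± 0.092 (edgeR adjusted p = 0.0484), which did not pass in 11 of 23 alternatives, any 1 day 2 control library left out among them. Sox15, which shares DNA-binding properties with Sox2 in stem cells, was higher on day 2.5 by 1.26 ± 0.20 (edgeR adjusted p = 0.000141), and Sox3, the closest neural relative, was lower by -0.55 ± 0.094 (edgeR adjusted p = 0.000228). Sox4 was lower by -0.75 ± 0.068 (edgeR adjusted p = 9.8e-07), and the neural POU gene Pou3f3 was higher by 2.19 ± 0.30 (edgeR adjusted p = 4.0e-05), from 0.725 ± 0.142 to 3.24 ± 0.92 CPM. Sox15 fell with time in control as Sox2 did (-0.98 ± 0.21, edgeR adjusted p = 0.00482), and in all 6 relatives fell, beside 7.91% of all genes, and none rose there by edgeR (0 also at an unadjusted p under 0.05, and 0 by DESeq2). With time in Trim33-deficient bodies 6 fell and 2 rose, beside 6.93% and 9.09% of all genes. When single libraries were left out, 5 to 7 fell and 0 to 2 rose there.

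The genes that flank Nanog did not move as 1 block. In the order along the chromosome, Gdf3 and Dppa3 lie to one side and Slc2a3 and Foxj2 to the other. Dppa3, a maternal factor of the naive state and germ line, is on the naive list and stood higher with deficiency by 0.48 ± 0.13 on day 2 and by 1.18 ± 0.11 on day 2.5. It rose with time in both genotypes, from 4.85 ± 0.126 to 7.28 ± 0.406 CPM in control and from 6.84 ± 0.61 to 16.5 ± 1.19 CPM in Trim33-deficient bodies. Gdf3, a ligand of the Nodal class, was higher on day 2.5 by 0.48 ± 0.10 (edgeR adjusted p = 0.00213). Slc2a3, a glucose transporter gene, had values on the side of Nanog that did not pass, -0.44 ± 0.30 between genotypes on day 2.5 (edgeR adjusted p = 0.273) and 0.64 ± 0.30 with time in control (edgeR adjusted p = 0.191). Foxj2 differed by 0.09 ± 0.12 (edgeR adjusted p = 0.57). Apobec1, an RNA-editing enzyme gene slightly further out, was higher on both days, by 0.80 ± 0.18 and 0.83 ± 0.19 (edgeR adjusted p = 0.0132 and 0.00227; the first did not pass without day 2 control replicate 1 or 3), and Necap1 did not pass (0.13 ± 0.069 on day 2.5, edgeR adjusted p = 0.135). Of the 8 genes listed beside Nanog, 6 were tested, and 3 were higher on day 2.5, beside 22% of all genes, and none lower (0 also by edgeR at an unadjusted p under 0.05 and by DESeq2), beside 20.7%.

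Of the tested neighbours of the other members, those of Sall4 and Utf1 were higher on day 2.5: Atp9a and Zfp64 beside Sall4 by 0.94 ± 0.13 and 0.33 ± 0.068 (edgeR adjusted p = 8.1e-05 and 0.00122), and Kndc1 beside Utf1 by 0.65 ± 0.13 (edgeR adjusted p = 0.000908). Beside Pou5f1 none passed, with Tcf19 at -0.07 ± 0.16, Cchcr1 at -0.06 ± 0.081 and H2-Q10, of a family of near-identical genes, at -0.21 ± 0.28 (edgeR adjusted p = 0.759, 0.587 and 0.578). Beside Lin28a, Ubxn11 was higher by 0.78 ± 0.27 (edgeR adjusted p = 0.0284), which did not pass without day 2.5 control replicate 1 or replicate 1 or 3 of day 2.5 Trim33-deficient bodies (edgeR adjusted p up to 0.129), and Dhdds and Hmgn2 were at -0.13 ± 0.077 and -0.07 ± 0.29 (edgeR adjusted p = 0.179 and 0.867). Sox2ot, the long non-coding transcript within which Sox2 lies, differed by 0.96 ± 0.40 and did not pass (edgeR adjusted p = 0.0638).

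The wider pluripotency lists are given beside 22% of all genes higher and 20.7% lower. Of 20 naive-state genes, which the selection itself refers to, 19 were higher and none lower on day 2.5 (median 1.47). Of 16 primed-epiblast genes, 10 were lower and 4 higher (median -0.55), with Fgf15 lower by -1.07 ± 0.12 (edgeR adjusted p = 8.6e-06), Zic2 lower by -0.84 ± 0.095 (edgeR adjusted p = 2.1e-05) and Grhl2 higher by 0.53 ± 0.066 (edgeR adjusted p = 1.5e-05). Of 15 genes of general pluripotency, 10 were higher and 2 lower (5 higher without the pair of day 2.5 libraries richest in Rn45s), with the Polycomb gene Phc1 higher by 0.54 ± 0.064 (edgeR adjusted p = 1.1e-05) and the DNA methyltransferase gene Dnmt3b lower by -0.77 ± 0.10 (edgeR adjusted p = 6.8e-05).

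Genes with the profile most like that of Nanog were ranked by Pearson correlation of log2 CPM over the 12 libraries among 10907 genes. The highest were Smchd1 (r = 0.984), a chromatin protein of the inactive X chromosome, Nmt2 (0.98), Ncan (0.977), Gramd4 (0.974), Thy1 (0.972), Zfp664 (0.971), Sort1 (0.969) and Reep2 (0.969). The lowest were Etv1 (r = -0.989), an ETS-family transcription factor, Mfsd10 (-0.987), Amz1 (-0.985) and Trap1a (-0.984). The order at the top depends on the measure. By rank (Spearman) correlation Nmt2 and Zfp664 stood at rank 19, Gramd4 and Sort1 at 37, Smchd1 and Thy1 at 58, Ncan at 79 and Reep2 at 255. Their rho lay between 0.902 and 0.965. Smchd1 differed by -0.37 ± 0.054 and Thy1 by -1.50 ± 0.21 between genotypes on day 2.5, against -1.26 for Nanog, so a like profile did not mean a like size. Trap1a differed by 1.69 ± 0.14 and Etv1 by 0.91 ± 0.13. These genes were picked for likeness in the same libraries and their differences are given without a test. For the other members the highest were Cxxc1, Clpp and Wdr18 for Pou5f1 (r from 0.932 to 0.912), Slc37a1, S1pr2 and Bicd2 for Sox2 (0.975 to 0.955), D15Ertd621e, Fbn1 and Wnt8a for Sall4 (0.943 to 0.924), Acacb, Pou2f2 and Samm50 for Utf1 (0.983 to 0.956) and Trib2, Aar2 and Ptpn11 for Lin28a (0.919 to 0.896).

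**Figure D5:**
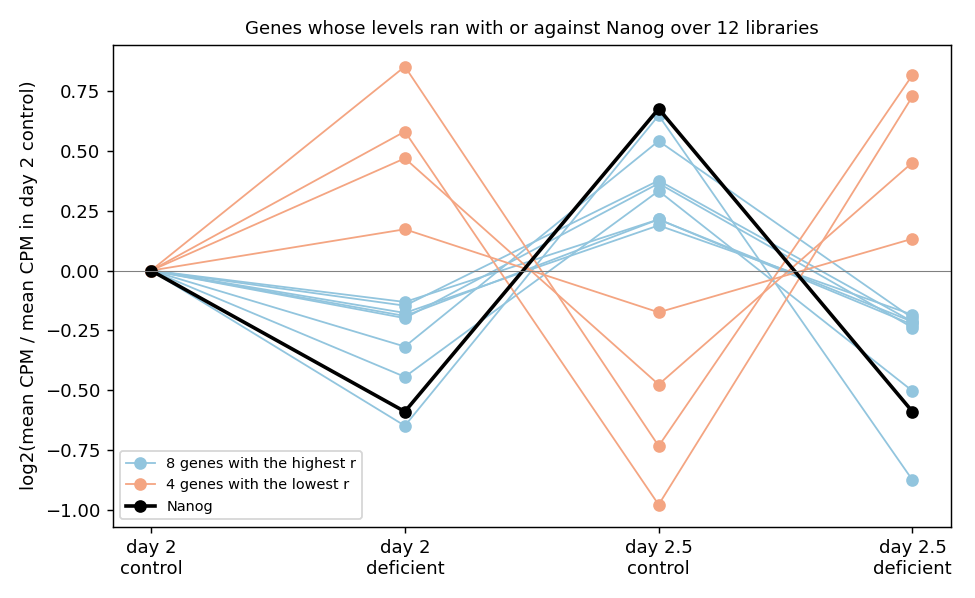
Mean level of Nanog, of the 8 genes with the highest and of the 4 genes with the lowest correlation with it, as log2 of the group mean CPM over the mean in day 2 control (y axis), by group (x axis). The genes were picked for likeness over the same 12 libraries, and the picture shows their size: on day 2.5 the Trim33-deficient means of Thy1 and Nanog stand furthest below control.

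Of the summed markers of other cell types, those of primitive streak, fibroblasts and neuroectoderm were highest in day 2.5 control, as Nanog was. Those of primitive endoderm also had their highest range there, which overlapped that of day 2.5 Trim33-deficient bodies. Those of trophoblast and germ cells were not highest there. The 6 primitive streak and mesoderm markers summed to between 45.3 and 59.6 CPM in day 2.5 control libraries, above the ranges of 27.9 to 32.4 in day 2 control, 23.8 to 27.8 in day 2 Trim33-deficient and 25.2 to 31 in day 2.5 Trim33-deficient bodies. Within that list Eomes stood at 22.1 ± 4.05 CPM in day 2.5 control and 11.1 ± 2.55 in day 2.5 Trim33-deficient bodies, Fgf8 at 13.4 ± 1.07 and 4.12 ± 1.07, and T at 3.08 ± 0.779 and 1.06 ± 0.322 (SD, n = 3), while 1 of the 6, Mesp1, averaged under 1 CPM. Eomes, Fgf8 and T were picked after their values were seen. Mixl1 and Wnt3, also on the list, are not given singly, so the sums do not show that each marker differed. The 5 fibroblast markers summed to between 31.6 and 39.1 CPM in day 2.5 control and 16.1 and 18.5 in day 2.5 Trim33-deficient bodies, with 23.8 to 30.2 and 17.3 to 19.3 on day 2. Of those 5, 2 averaged under 1 CPM, Postn being at 0 in every day 2.5 library. Thy1, on the fibroblast list and named above for its likeness to Nanog, stood at 21.3 ± 3.83 CPM in day 2.5 control and 7.42 ± 1.49 in day 2.5 Trim33-deficient bodies. The fibroblast sum in day 2.5 control thus rests largely on a gene picked for likeness to Nanog, and the list was not summed without it. The 6 trophoblast markers summed to between 24.6 and 34.3 CPM in day 2.5 control and, higher, between 35.5 and 42.3 in day 2.5 Trim33-deficient bodies, with 19.6 to 23.7 and 22.9 to 31 on day 2. Eomes is on this list as well as on the streak list, and on day 2.5 it went against the trophoblast sum. The 4 germ cell markers summed to between 76.8 and 78.5 CPM in day 2.5 control and between 81.2 and 99.1 in Trim33-deficient bodies, with 81 to 86.7 and 73.9 to 85.2 on day 2. The 7 primitive endoderm markers summed to between 34.3 and 45 CPM in day 2.5 control and 31.8 and 35.1 in Trim33-deficient bodies, with 27 to 33.3 and 26.8 to 30.7 on day 2. The 5 neuroectoderm markers summed to between 131 and 148 CPM and 115 and 130 on day 2.5, with 79.5 to 102 and 80.8 to 88.6 on day 2, which is lower on day 2 in both genotypes. The part of these cell types in the Nanog values was not tested, and in whole bodies fewer cells with Nanog and less Nanog RNA per cell cannot be told apart.

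Some reads of the members could belong elsewhere. In GENCODE M21, Nanog shares 245 bases at 97.6% identity with the pseudogene Nanog-ps1, which has no count row, so how its reads were handled cannot be seen. Antisense transcripts without count rows overlap the exons of Pou5f1 by 317 bases, of Sall4 by 526 and of Lin28a by 234, and whether the counting used strand is not given in the sources used here.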

How the data were processed

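Total RNA of whole embryoid bodies was sequenced on an Illumina instrument. The submitters' processing notes name STAR, HTSeq, DESeq and the mouse build mm9, without versions; annotation, strand setting and treatment of reads with several matches are not given in any source used. The deposited files hold raw counts per gene symbol, 1 file per library. In 1 file 27 gene names had been turned into dates, and were restored by their position. The 5 closing rows were left out; between 55.9% and 60.5% of reads fell in no feature and between 0.144% and 0.189% were ambiguous.

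Counts of all 12 libraries were fitted with edgeR 4.0.16 (R 4.3.3): filterByExpr, TMM scaling, 4 group means, robust quasi-likelihood with 8 residual degrees of freedom, and Benjamini-Hochberg adjustment over 14356 genes at 0.05. The fit was tested on simulated data, drawn from the fitted spread with changes placed only in day 2.5 Trim33-deficient bodies. No simulated library was made to stand apart, so the simulation cannot show how the fit handles those that did here. Correlations used genes with a mean CPM of at least 5. Ratios within a library used a prior of 0.5 counts. Exon lengths and copies came from GENCODE M21 (blastn 2.17.0). The replicates come from one study's pairs, but nothing says that they were separate cultures, so p-values may measure technical spread. Replicates differed by more than sampling noise, and none was merged.

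The text names the 6 members, Trim33, from each list the 4 genes whose adjusted p was smallest in either genotype comparison (each tested gene of the list beside Nanog), the 8 highest and 4 lowest correlations with Nanog, the 3 highest for each partner, and the tested neighbours among the nearest 2 genes on each side. The single marker genes were picked after their values were seen. The members and the lists were chosen with earlier results of these data known. Alternatives were RLE, upper-quartile and unscaled totals, other filters, DESeq2 1.42.0, a replicate block, only the compared libraries, without Rn45s, and without single or several libraries. Samples with the same replicate number did not deviate together throughout, so the numbers were not used as pairs.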

Additional observations from a re-analysis of the deposited data

Results flagged for a closer look

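The change from day 2 to day 2.5 differed between genotypes for 13 of the named genes, by edgeR's interaction term at an adjusted p under 0.05. Over all 14356 genes tested, the same term called 575. Most named genes were picked by their genotype differences, so the 13 cannot be read as an excess over all genes. The value is the log2 change in Trim33-deficient bodies minus that in control. It contains the day 2.5 genotype difference by which most of these genes came to be named, and Esrrb, Klf2, Tfcp2l1, Fbxo15 and Dppa3 are naive genes that the choice of members refers to, so the values are a description. Among activators of Nanog it was 1.04 for Esrrb (control -0.83, Trim33-deficient 0.21), 1.25 for Klf2 (-0.74 and 0.51) and 0.898 for Tfcp2l1 (-0.31 and 0.59). Among genes bound by Oct4 and Sox2 it was 1.3 for Fbxo15 (-0.18 and 1.13), 0.877 for Spp1 (-0.51 and 0.37) and 0.694 for Dppa3 (0.59 and 1.28). Among co-factors it was 0.589 for Mybl2 (-0.50 and 0.09) and 0.353 for Rif1 (-0.12 and 0.23).

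Lin28b had a difference of -0.458 (control 0.24, Trim33-deficient -0.22). The repressor Nr6a1 had -0.437 (control 0.33, Trim33-deficient -0.11) and Grhl2 0.344 (-0.35 and -0.001). Zfp664 had -0.315 (0.22 and -0.10) and Trap1a 1.11 (-0.97 and 0.15), both of which were chosen for running with or against Nanog in the same libraries. Mybl2 and Trap1a passed in all 22 alternatives and Fbxo15 in 21. The others passed in fewer: Esrrb and Lin28b in 18, Klf2 in 17, Spp1 in 15, Nr6a1 in 14, Dppa3 and Rif1 in 12, Zfp664 in 11, and Tfcp2l1 and Grhl2 in 10.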

How the results depend on the processing

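The tested changes of the members with time, the rise of Nanog and the falls of Sox2 and Utf1 in control and the fall of Utf1 in Trim33-deficient bodies, kept their direction and passed in all 23 alternatives; Nanog ranged from 0.569 to 0.851 when single libraries were left out, with an adjusted p of at most 0.0464. The near-0 change of Nanog in Trim33-deficient bodies took the other sign, and never passed, with total counts only (0.0285), the replicate block (0.00573), and without the pair of day 2.5 libraries richest in Rn45s (0.0549), a setting chosen after seeing the data; leaving out single libraries gave -0.0968 to 0.0786. The control change of Pou5f1 passed in 5 alternatives, as did that of Lin28a, and the Trim33-deficient change of Sall4 in 2.

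Gene calls on day 2 numbered 1413, but 709 with total counts only and 514 to 1617 without single libraries. Calls with time in control numbered 2313, but 1384 with only the 6 libraries compared and 1235 to 2393 without single libraries. In Trim33-deficient bodies they numbered 2300, but 3741 without the 3 libraries that stood apart and 1101 to 2780 without single libraries. They numbered 1456 without the pair of day 2.5 libraries richest in Rn45s, which were control replicate 2 (11.9%) and Trim33-deficient replicate 1 (1.67%). The interaction called 575 genes, but 1169 with the replicate block, 1967 without the 3 libraries, 101 without the pair and 119 to 1217 without single libraries. The cause was not tested. Total counts only raised the share of higher calls from 60.4% to 77.3% on day 2, from 51.5% to 66.1% on day 2.5, from 56.7% to 78.6% with time in Trim33-deficient bodies and from 69% to 91.4% for the interaction. Same-numbered libraries did not deviate together throughout: the correlations reached 0.365 and 0.451 between the control days but were 0.032 for replicate 3, and lay between -0.033 and -0.00944 on day 2.5. Of 6 libraries, 3 on day 2, 0 on day 2.5, 4 between control days and 3 between Trim33-deficient days correlated best with their own number. The replicate block gave 1870, 6541, 2776 and 2780 calls in these comparisons. Depth limits genes of few counts, such as Gata6 and Sox17.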
